A study of Mus musculus with 18 samples.

Results

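Glycolysis and the response to low oxygen were followed through 35 genes in mouse germ cell precursors and the cells they come from. The genes were taken by symbol from a list chosen for function, and all 35 were found among the 34896 genes listed in each library. They were ordered as glucose transporters, hexokinases, upper and lower glycolysis enzymes, genes of lactate and pyruvate handling, regulators of phosphofructokinase, hypoxia response genes, and Hif1a with its hydroxylases. Of the 35, 33 reached the level needed for testing, 10 RPM (reads scaled to a common library size) in at least 2 libraries, among 9561 genes tested in all. The other 2 were Eno2, an enolase of neurons, at 0 to 2.22 RPM, and Vegfa, a growth factor of blood vessels, at 1.94 to 10.8 RPM.

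The study asked how cyclosporin A (CsA), an inhibitor of calcineurin and cyclophilins, and FGF signalling affect cultures of primordial germ cell-like cells (PGCLCs), the in vitro counterpart of the precursors of sperm and eggs. Expression was read from transcript 3' ends by SC3-seq, with 1 ng of RNA taken into cDNA amplification, in 18 libraries, 2 for each of 9 groups. Embryonic stem cells (ESCs) were kept in 2i and LIF, epiblast-like cells (EpiLCs) were induced from them with activin A, FGF2 and KSR, and day-4 PGCLCs were induced from EpiLCs in floating aggregates with BMP4, LIF, SCF and EGF. These 3 groups have the strain label C57BL/6 and carry the reporters Blimp1-mVenus and Stella-ECFP. ESCs and EpiLCs were unsorted and day-4 PGCLCs were sorted for mVenus, so the level of Prdm1, which encodes Blimp1, is not independent of that sort. In the 4 groups named d4c7, day-4 PGCLCs with the same reporters and the strain label B6D2F1 were cultured for 7 days on m220-5 feeder cells, which had been adapted to forskolin and rolipram and then treated with mitomycin C, and were sorted for mVenus again. They are labelled FR10, CsA, FGF10 and FGF2. In the 2 groups named E9.5c5, germ cells of day 9.5 embryos labelled B6D2F1 x C57BL/6, with the reporter Stella-EGFP, spent 5 days on the same feeders and were sorted for EGFP. They are labelled FR10 and CsA. FR10 stands for 10 µM of both forskolin and rolipram in the account of the feeders, while the account of the medium gives 10 mM rolipram, and which unit holds is not settled here. Both compounds raise cyclic AMP, and the medium also held SCF and serum. The sources used here do not give the amounts of CsA and FGF, whether those cultures also received forskolin and rolipram, or whether FGF10 names a factor or an amount.

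Glycolysis converts glucose to pyruvate in the cytosol. Pyruvate is then either reduced to lactate by lactate dehydrogenase and exported, or enters mitochondria and is oxidised by pyruvate dehydrogenase, which the pyruvate dehydrogenase kinases switch off. The transcription factor HIF1 raises many of these genes in low oxygen. Its subunit HIF1A is made all the time and is marked for destruction by the oxygen-dependent EGLN hydroxylases, so it is controlled as a protein more than as an RNA, and EGLN1 and EGLN3 are themselves HIF target genes. Pluripotent cells that leave the naive state are known for a shift towards glycolysis with lactate release.

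Several members come in pairs with the same reaction and different known regulation. The promoters of a lactate dehydrogenase pair and of a monocarboxylate transporter pair are shown because Ldhb and Slc16a3 were among the members called most often below, and Ldha and Slc16a1 are their partners. Each sequence is the 250 bases before a transcription start in RefSeq, build GRCm38.p6, read 5′ to 3′ on the gene's strand. The capitals mark every match to ACGTG or GCGTG on either strand, the core letters bound by HIF. CACGTG, the letters of an E-box, holds ACGTG on both strands and was counted as 2 matches. The regions are chr7:46845554-46845803 (plus strand) for the first of 2 listed starts of Ldha, chr6:142507958-142508207 (minus strand) for Ldhb, chr11:120948817-120949066 (plus strand) for Slc16a3 and chr3:104638414-104638663 (plus strand) for Slc16a1.
Ldha: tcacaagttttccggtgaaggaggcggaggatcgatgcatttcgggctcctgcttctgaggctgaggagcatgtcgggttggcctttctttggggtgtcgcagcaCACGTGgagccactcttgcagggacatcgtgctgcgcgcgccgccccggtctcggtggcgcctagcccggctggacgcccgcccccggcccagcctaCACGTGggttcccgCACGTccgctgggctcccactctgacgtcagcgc
Ldhb: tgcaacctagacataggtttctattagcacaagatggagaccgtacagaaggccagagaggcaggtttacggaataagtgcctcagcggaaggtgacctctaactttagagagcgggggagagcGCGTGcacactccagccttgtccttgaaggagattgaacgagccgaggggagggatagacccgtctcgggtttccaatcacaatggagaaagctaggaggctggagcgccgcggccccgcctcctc
Slc16a3: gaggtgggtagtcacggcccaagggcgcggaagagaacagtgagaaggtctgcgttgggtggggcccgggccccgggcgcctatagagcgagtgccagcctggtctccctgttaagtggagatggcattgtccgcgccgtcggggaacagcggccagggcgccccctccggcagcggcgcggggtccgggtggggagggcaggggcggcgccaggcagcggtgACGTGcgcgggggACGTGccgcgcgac
Slc16a1: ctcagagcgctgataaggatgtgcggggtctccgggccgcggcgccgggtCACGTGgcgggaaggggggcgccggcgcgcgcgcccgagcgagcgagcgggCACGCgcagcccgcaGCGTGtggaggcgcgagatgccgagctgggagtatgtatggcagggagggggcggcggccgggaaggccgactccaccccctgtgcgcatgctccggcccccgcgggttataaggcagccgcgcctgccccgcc
The first Ldha window held 5 matches to ACGTG and 0 to GCGTG, and that of Ldhb held 0 and 1. The window of the second Ldha start, chr7:46846832-46847081 and not printed, also held 0 and 1. The contrast within this pair thus depends on the start taken. The Slc16a3 window held 2 and 0, and that of Slc16a1 held 2 and 2. In all, 33 members had 47 promoter windows, and Slc2a3 and Bnip3l are named only. ACGTG was in 46.8% of the 47 windows, in 22.5% of 9938 windows of tested genes and in 16.6% of all 32851 windows. For GCGTG the shares were 57.4%, 46.6% and 28.2%. A match describes letters in the window and says nothing about binding in these cells.

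The libraries held an inferred 2129399 to 7547682 reads each, so that 3 reads correspond to 0.397 to 1.41 RPM. Replicate libraries differed by a median absolute log2 value of at most 0.29 over all tested genes in 6 groups, and by 0.60 in E9.5c5 CsA, 0.47 in d4c7 FGF2 and 0.43 in E9.5c5 FR10. Replicate 2 of these 3 groups stood apart in earlier results of these data, and results are given with and without those 3 libraries where this changes them. The protocols describe the replicates of cultured groups as biological and are silent on those of the 3 uncultured groups, whose spread may be technical. The spread behind every p-value was pooled over all 9 groups, cultured ones included. P-values of the uncultured comparisons therefore do not measure the spread of those replicates alone. As a check of the labels, 4 of 4 naive ESC markers fell and 4 of 4 EpiLC markers rose from ESCs to EpiLCs. From EpiLCs to day-4 PGCLCs 7 of 9 germ cell markers rose (6 with median-ratio scaling, which called 2 lower), where 27.5% of all tested genes were higher. The 7 include Prdm1, whose rise is not independent of the sort. Differences below are of log2(RPM + 1) with their standard error (SE), from limma over all 18 libraries, with p-values adjusted by Benjamini-Hochberg over all 9561 genes and called at 0.05. RPM is a share of each library, so a rise of abundant genes lowers the rest, and in sorted cells and mixtures fewer cells of a type and less RNA per cell cannot be told apart.

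**Figure D1:**
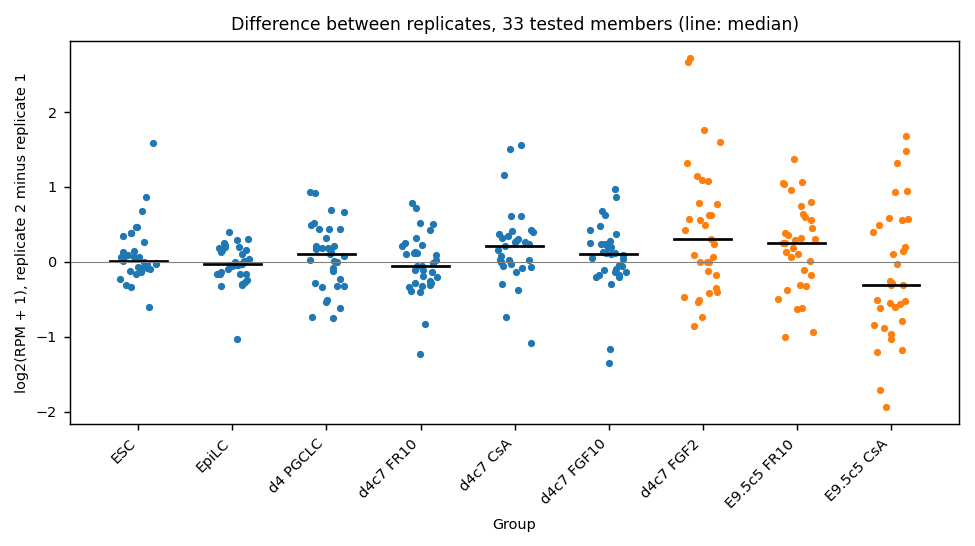
Difference between the replicate libraries of each group, log2(RPM + 1) of replicate 2 minus replicate 1, for the 33 tested members (points) with their median (line). The 3 groups in orange spread more widely than the others, and in d4c7 FGF2 8 members lay at least 2-fold higher in replicate 2 and 0 at least 2-fold lower.

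Over all groups the members fell into a few patterns. The enzymes from hexokinase to pyruvate kinase together took 0.615% and 0.603% of each ESC library, 0.718% and 0.687% of EpiLCs, and 0.426% and 0.402% of day-4 PGCLCs. In culture they took 0.324% and 0.331% in d4c7 FR10 and 0.307% and 0.325% in d4c7 CsA. The d4c7 FGF10 libraries held 0.426% and 0.419%, and those of d4c7 FGF2 0.381% and 0.539%. In E9.5c5 the shares were 0.362% and 0.460% with FR10 and 0.275% and 0.317% with CsA. The share was thus highest in both EpiLC libraries and lowest in a CsA library, and the FGF2 and E9.5c5 FR10 replicates lay far apart. Gapdh, glyceraldehyde-3-phosphate dehydrogenase, was the most abundant member, at 1270 to 2370 RPM in all 18 libraries. Hif1a, the oxygen-regulated subunit, lay between 51.1 and 137 RPM. It was among 7 tested members called in none of the comparisons below. The others were Hk2 at 3.18 to 46.8 RPM, the muscle phosphofructokinase Pfkm at 17.0 to 44.5 RPM, Pgam1 at 151 to 790 RPM, Pkm at 404 to 1060 RPM, the pyruvate dehydrogenase subunit Pdha1 at 102 to 314 RPM and Pfkfb4 at 1.16 to 22.9 RPM. A relative of Pfkfb3, Pfkfb4 was at or below 5.64 RPM in all 6 uncultured libraries and at or above 8.02 RPM in all 12 cultured ones.

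**Figure D2:**
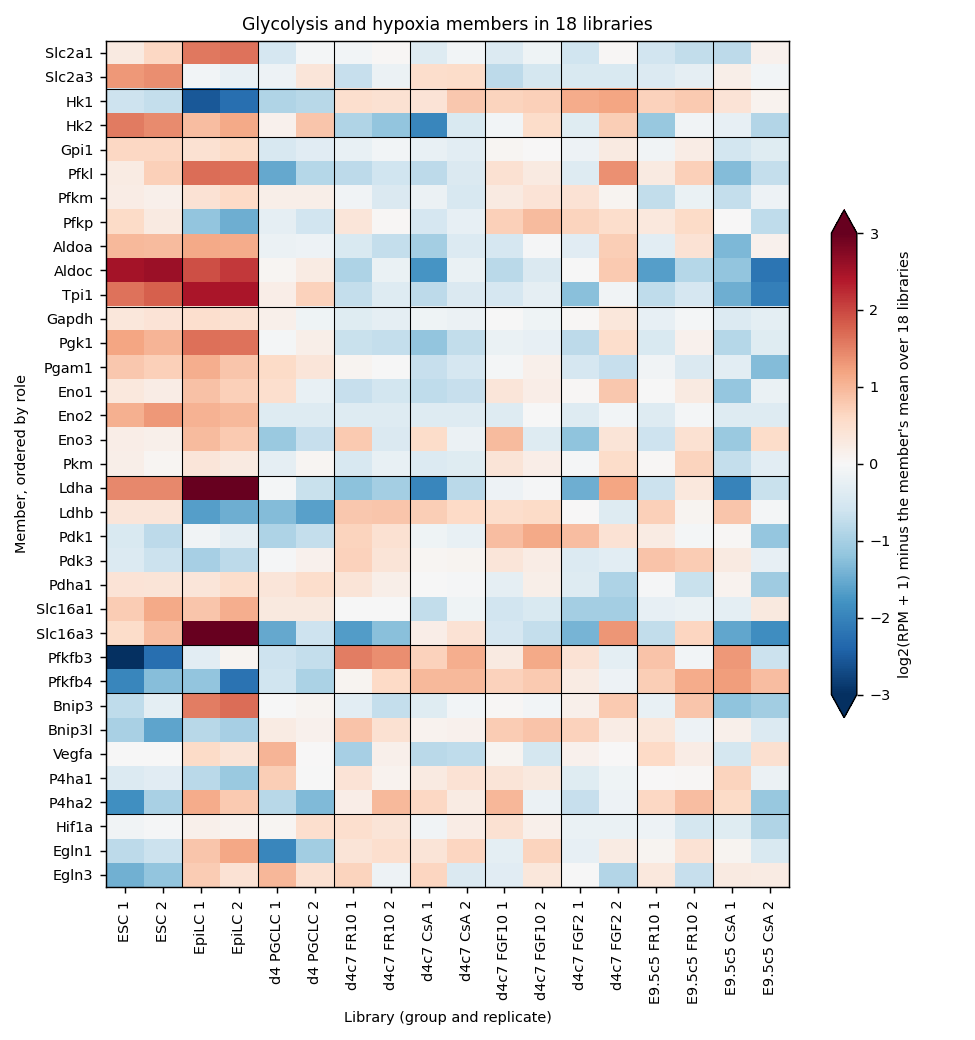
Level of each of the 35 members (rows, ordered by role) in each of the 18 libraries (columns), as log2(RPM + 1) minus the member's mean over the libraries, from blue (below the mean) to red (above it). The EpiLC columns are red for Ldha, Slc16a3, Tpi1, Pgk1 and Bnip3 and blue for Hk1 and Ldhb, and in all 12 cultured columns Hk1 is red and Tpi1 blue.

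EpiLCs were compared with ESCs to show what changed on leaving the naive state. Here 7 members rose and 4 fell, 11 of 33, where 16% of all tested genes were called (7.09% higher, 8.86% lower). Over all tested members the median difference was 0.19, against 0.01 over all genes. The members called lay at the entry of glucose, at its first committed steps, at lactate and among oxygen-related genes, and within several pairs 1 member rose while its partner fell or did not pass.

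Slc2a1, the glucose transporter GLUT1 (chromosome 4, 119108745 to 119137330), was at 91.6 and 117 RPM in ESCs and at 229 and 236 RPM in EpiLCs, a rise of 1.16 (SE 0.29, adjusted p = 0.0103 in limma). Slc2a3, the high-affinity transporter GLUT3 (chromosome 6, 122727809 to 122802363), went from 991 and 1060 RPM to 380 and 346 RPM and fell by 1.5 (SE 0.20, adjusted p = 4.95e-05). The groups did not overlap in either gene, which held for 29 of 33 members and for 68.3% of all tested genes, so that with 2 libraries a side it sets no gene apart. Hk1, the hexokinase that most tissues use (chromosome 10, 62268855 to 62379920), fell from 23.8 and 22.2 RPM to 5.52 and 6.96 RPM, a difference of -1.74 (SE 0.25). Hk2, its inducible partner, was at 46.8 and 42.4 RPM in ESCs and 30.1 and 35.2 RPM in EpiLCs and did not pass. Among phosphofructokinase genes, which encode the enzyme that commits glucose to glycolysis, Pfkp of the platelet type fell from 204 and 164 RPM to 58.9 and 48.8 RPM (-1.75, SE 0.25). Pfkl of the liver type was at 26.8 and 37.4 RPM and then at 73.7 and 72.0 RPM and did not pass. Pfkfb3, whose product makes the activator fructose 2,6-bisphosphate (chromosome 2, 11471430 to 11554071), rose from 1.19 and 5.55 RPM to 24.0 and 32.1 RPM, by 2.92 (SE 0.56, adjusted p = 0.00146).

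At the lactate step the pairs parted. Slc16a3, the lactate exporter MCT4 of glycolytic cells (chromosome 11, 120948484 to 120959000), had 7.29 and 9.80 RPM in ESCs and 83.2 and 82.8 RPM in EpiLCs, a rise of 3.15 (SE 0.68, adjusted p = 0.0035). Its partner Slc16a1, the monocarboxylate transporter MCT1, was at 76.4 and 99.9 RPM and at 81.0 and 96.7 RPM, with overlapping groups. Ldhb, the subunit that favours lactate oxidation (chromosome 6, 142490249 to 142507957), fell from 581 and 577 RPM to 143 and 162 RPM, by 1.92 (SE 0.25, adjusted p = 3.84e-05). Ldha, the subunit that favours lactate formation (chromosome 7, 46842274 to 46855627), was at 177 and 177 RPM and then at 597 and 575 RPM, and did not pass (adjusted p = 0.0712). It did pass without the 3 libraries that stand apart (adjusted p = 6.42e-05), and it is named here after its values were seen. The ratio of Ldha to Ldhb RPM was 0.305 and 0.307 in ESCs and 4.18 and 3.55 in EpiLCs.

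Of the oxygen-related members, 4 of 7 tested rose and 0 fell. Bnip3, a mitochondrial receptor of autophagy, rose from 19.9 and 27.9 RPM to 102 and 112 RPM (2.13, SE 0.34). P4ha2, a collagen prolyl hydroxylase subunit, went from 0.662 and 2.03 RPM to 11.8 and 9.29 RPM (2.35, SE 0.58), with ESC values near the depth limit. Egln1, the main HIF hydroxylase gene (chromosome 8, 124908587 to 124949254), rose from 16.2 and 17.8 RPM to 52.0 and 64.6 RPM (1.72, SE 0.37). Egln3 rose from 4.77 and 5.92 RPM to 25.5 and 20.1 RPM (1.91, SE 0.48). Hif1a itself was at 90.1 and 94.3 RPM and at 107 and 104 RPM and did not pass. The call of Slc2a1 ended without ESC replicate 1 (adjusted p = 0.119), EpiLC replicate 1 (0.0619) or EpiLC replicate 2 (0.0767), and that of Egln1 without EpiLC replicate 2 (0.0557). P4ha2 lost its call without ESC replicate 1 (adjusted p = 0.12) or EpiLC replicate 1 (0.0772), and Egln3 without the same libraries (0.0892 and 0.0953). Feeder and fibroblast markers summed to 59.8 and 74.6 RPM in ESCs and to 107 and 103 RPM in EpiLCs, with 3 of 7 higher (Cxcl12, Thy1 and Dcn) and 1 lower, and their part in these results was not tested. Without the 3 libraries that stand apart 17 members were called, 13 higher and 4 lower, where 29.5% of genes were called.

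Other genes of these pathways moved in both directions. Of 12 tested HIF pathway genes 1 rose and 1 fell. Epas1, which encodes HIF2A, fell from 58.7 and 70.5 RPM to 5.33 and 6.19 RPM (-3.27, SE 0.30, adjusted p = 7.41e-07). Arnt2, a dimer partner of HIF subunits, rose from 0.530 and 1.11 RPM to 17.9 and 12.4 RPM (3.15, SE 0.63). Of 26 further hypoxia target genes 3 rose and 3 fell, with Plod1, a lysyl hydroxylase, lower by 2.39 on the log2 scale (a difference of -2.39, SE 0.42). Of 10 genes of pyruvate dehydrogenase and mitochondrial carriers 1 rose and 1 fell, the latter being Mpc1 of the mitochondrial pyruvate carrier (-1.44, SE 0.25). The 6 tested paralogs of glycolysis enzymes and the 7 pentose phosphate genes had 0 called by limma. In each list 1 gene was at an unadjusted p under 0.05, as were 2644 of all 9561 genes.

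**Figure D3:**
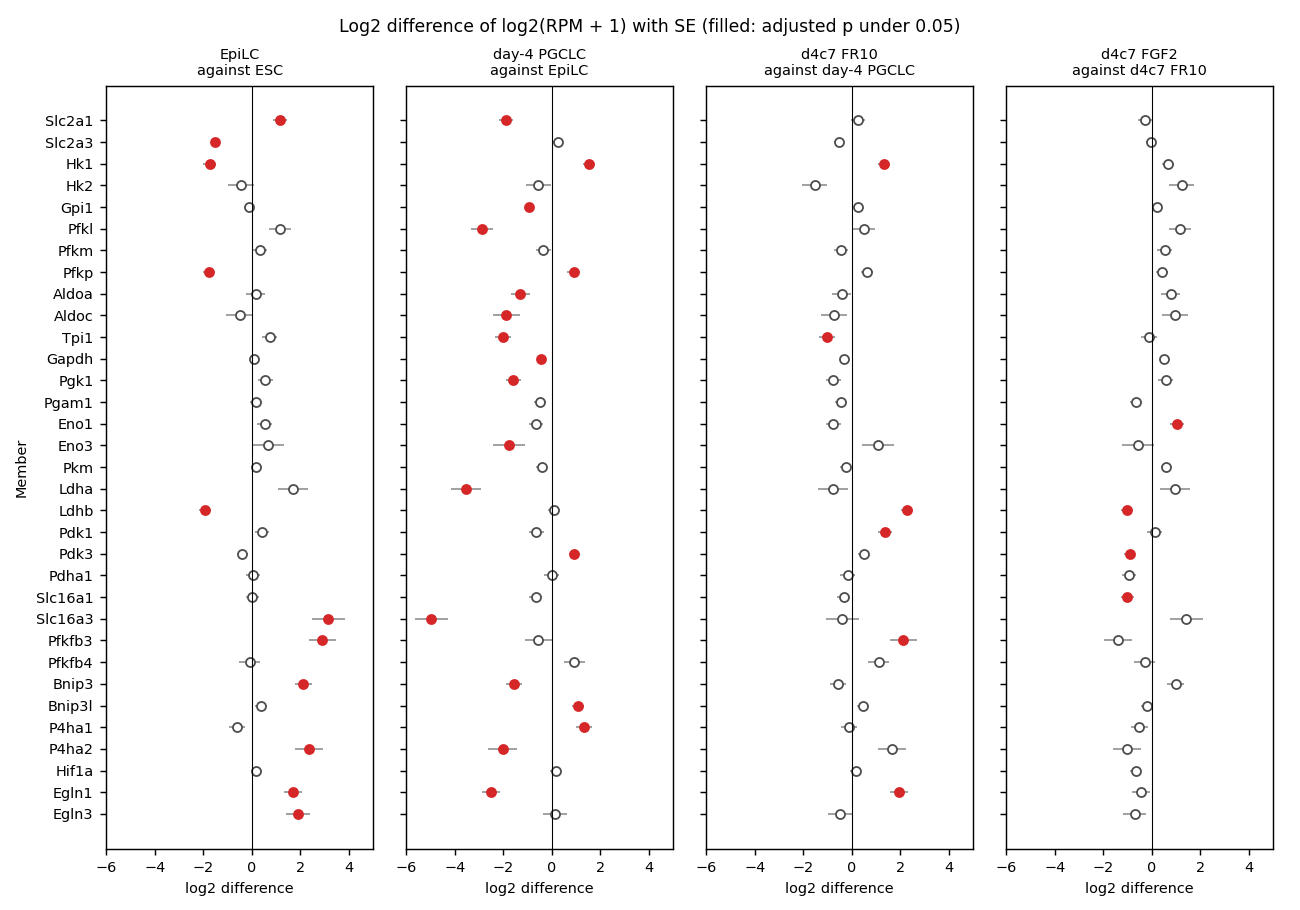
Difference of log2(RPM + 1) with its SE for the 33 tested members in 4 comparisons, filled where the adjusted p was under 0.05. Slc16a3 and Ldha lie farthest to the left in day-4 PGCLCs against EpiLCs, at -4.97 and -3.53, and Ldhb lies at 2.29 in d4c7 FR10 against day-4 PGCLCs.

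Induction of germ cell fate was examined by setting day-4 PGCLCs against EpiLCs. Of 33 members 14 fell and 5 rose, where 12.1% of all tested genes were lower and 27.5% higher (39.6% called). The median member was at -0.56 and the median gene at 0.34. Median-ratio scaling, which moved the median of all genes to 0, gave 19 lower and 4 higher members, where 18.7% and 17.4% of genes were called. Without the 3 libraries that stand apart 19 members were lower and 5 higher, where 1691 and 3611 of all 9561 genes were called. Lower genes ran through the pathway from GLUT1 to lactate export. The comparison shares the EpiLC libraries with that of EpiLCs and ESCs, so that a member high or low in those libraries counts in both.

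Slc2a1 went from 229 and 236 RPM in EpiLCs to 53.1 and 72.6 RPM in day-4 PGCLCs and fell by 1.89 (SE 0.29, adjusted p = 9.15e-05). Slc2a3 was at 380 and 346 RPM and at 360 and 518 RPM, with overlapping groups. In upper glycolysis 5 of 7 members fell. Pfkl fell from 73.7 and 72.0 RPM to 7.04 and 11.8 RPM (-2.86, SE 0.45), and Tpi1, triosephosphate isomerase, from 416 and 419 RPM to 86.9 and 123 RPM (-2.01, SE 0.32). Gpi1, glucose phosphate isomerase, fell by 0.93 (SE 0.19), and the aldolase genes Aldoa and Aldoc by 1.29 (SE 0.39) and 1.87 (SE 0.55). Pfkp rose, from 58.9 and 48.8 RPM to 113 and 90.2 RPM (0.90, SE 0.25). In lower glycolysis 3 of 6 tested members fell. Pgk1, phosphoglycerate kinase, fell from 1300 and 1280 RPM to 398 and 463 RPM (-1.59, SE 0.31). Gapdh fell by 0.46 (SE 0.16) and Eno3, the muscle enolase, by 1.77 (SE 0.66), while Pgam1, Eno1 and Pkm did not pass.

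Slc16a3 and Ldha had the largest differences of the 33 members. Slc16a3 went from 83.2 and 82.8 RPM to 0.939 and 2.70 RPM, and the first of these lies under the 1.41 RPM that 3 reads give in that library. Its fitted difference was -4.97 (SE 0.68, adjusted p = 2.8e-05). It did not overlap between groups, which held for 28 of 33 members and 79.4% of all tested genes. Ldha fell from 597 and 575 RPM to 62.0 and 40.0 RPM (-3.53, SE 0.62, adjusted p = 0.000281). Ldhb was at 143 and 162 RPM and at 181 and 145 RPM, and did not pass. The ratio of Ldha to Ldhb RPM was 0.343 and 0.276 in day-4 PGCLCs against 4.18 and 3.55 in EpiLCs. Hk1 rose from 5.52 and 6.96 RPM to 19.3 and 20.5 RPM (1.53, SE 0.25), and Pdk3, a kinase that restrains pyruvate dehydrogenase, from 30.5 and 35.2 RPM to 60.1 and 68.0 RPM (0.94, SE 0.23).

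Within the hypoxia genes, partners parted again. Bnip3 fell from 102 and 112 RPM to 34.3 and 36.9 RPM (-1.56, SE 0.34), while its relative Bnip3l, also called Nix, rose from 108 and 96.0 RPM to 228 and 210 RPM (1.09, SE 0.25). P4ha2 fell from 11.8 and 9.29 RPM to 2.35 and 1.35 RPM (-2.03, SE 0.58), and P4ha1, the other catalytic subunit, rose from 12.6 and 10.1 RPM to 39.0 and 22.8 RPM (1.33, SE 0.34). Egln1 fell from 52.0 and 64.6 RPM to 6.57 and 13.3 RPM (-2.50, SE 0.37), whereas Egln3 was at 25.5 and 20.1 RPM and at 30.5 and 20.7 RPM. Feeder and fibroblast markers, at 36.2 and 47.7 RPM in sum at day 4, had 3 of 7 lower (Cxcl12, Thy1 and Dcn), and their part was not tested here either. Of the 19 calls, 12 were kept with any 1 library left out. Those of Aldoa (adjusted p up to 0.0799), Gapdh (0.205), Eno3 (0.194), P4ha1 (0.0975), Pfkp (0.0898), P4ha2 (0.079) and Aldoc (0.0766) ended without single EpiLC or day-4 libraries, and that of Eno3 also without either ESC library. Further, Pfkp did not pass with median-ratio scaling (0.54, adjusted p = 0.0604), Aldoc with a pseudocount of 0.1 RPM (adjusted p = 0.0605), Aldoa with no filter (0.0587), and Eno3 with that pseudocount (0.056), with no filter (0.105) or with voom (0.0519).

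Of other pathway genes, pentose phosphate enzymes had 3 of 7 lower and 0 higher. Pgd, of the oxidative branch, fell from 187 and 187 RPM to 41.3 and 44.0 RPM (-2.11, SE 0.20), and Tkt, transketolase, from 414 and 363 RPM to 96.7 and 98.5 RPM (-1.98, SE 0.27). Mpc1 rose from 12.2 and 13.9 RPM to 132 and 104 RPM (3.07, SE 0.25, adjusted p = 1.33e-07), with 2 higher and 2 lower of 10 in its list. Kdm3a, a histone demethylase and HIF target, rose by 2.35 (SE 0.32). In its list of 26 hypoxia targets 6 rose and 8 fell, and with median-ratio scaling 2 rose and 9 fell. HIF pathway genes had 2 of 12 higher and 1 lower (2 and 3 with median-ratio scaling), and paralogs of glycolysis enzymes 1 of 6 higher (1 higher and 1 lower with that scaling).

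Set against ESCs, which share the day-4 libraries with the comparison above, day-4 PGCLCs had 11 members lower and 3 higher of 33, where 10.2% of genes were lower and 24.3% higher (34.5% called). With median-ratio scaling 16 were lower and 3 higher, where 15.7% and 14.5% of genes were called. Leaving out the 3 libraries that stand apart gave 15 lower and 5 higher, where 1469 and 3416 of all 9561 genes were called. Upper glycolysis had 6 of 7 members lower, with Aldoc going from 34.6 and 36.4 RPM to 5.64 and 6.57 RPM (-2.37, SE 0.55) and Gpi1 from 237 and 238 RPM to 110 and 121 RPM (-1.04, SE 0.19). Tpi1 (-1.27, SE 0.32), Pfkl (-1.69, SE 0.45), Pfkp (-0.85, SE 0.25) and Aldoa (-1.12, SE 0.39) made up the rest of these 6, and Pgk1 was lower by -1.04 (SE 0.31). Slc2a3 fell from 991 and 1060 RPM to 360 and 518 RPM (-1.25, SE 0.20). Both lactate dehydrogenase genes were lower, Ldhb by -1.83 (SE 0.25) and Ldha by -1.81 (SE 0.62), with the ratio of their RPM at 0.305 and 0.307 in ESCs and 0.343 and 0.276 at day 4. Slc16a3 had -1.82 (SE 0.68). The 3 members that rose were Pfkfb3 (2.38, SE 0.56), Egln3 (2.05, SE 0.48) and Bnip3l (1.46, SE 0.25). Thus Pfkfb3 was at 1.19 and 5.55 RPM in ESCs and at 19.3 and 18.2 RPM in day-4 PGCLCs.

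The count of 14 fell to 8 without ESC replicate 1 (22.6% of genes called) or day-4 replicate 1 (21%), and to 9 without ESC replicate 2 (20.8%). The 6 calls kept with any library left out were those of Ldhb, Slc2a3, Bnip3l, Gpi1, Aldoc and Egln3, and the others ended without single ESC or day-4 libraries (that of Aldoa without either EpiLC library as well, and that of Slc16a3 without any of 12 libraries, the 6 uncultured ones and both libraries each of d4c7 FR10, CsA and FGF10), at an adjusted p of up to 0.278 for Slc16a3, 0.179 for Ldha, 0.136 for Aldoa, 0.12 for Pfkp, 0.108 for Pgk1, 0.0994 for Pfkl, 0.0805 for Pfkfb3 and 0.076 for Tpi1. With no filter the calls of Pgk1 (adjusted p = 0.0553), Ldha (0.104), Aldoa (0.113) and Slc16a3 (0.127) ended, and Slc16a3 also did not pass at a pseudocount of 0.1 RPM (0.0647) or 10 RPM (0.0526) or with voom (0.0702). Of the other pathway genes, Pgd was lower by -2.71 (SE 0.20), Epas1 by -1.89 (SE 0.30) and Ak4, an adenylate kinase, by -3.87 (SE 0.64), while Mpc1 was higher by 1.63 (SE 0.25). Pentose phosphate genes had 3 of 7 lower and 0 higher, HIF pathway genes 1 higher and 1 lower of 12 (1 and 3 with median-ratio scaling), and further hypoxia targets 5 higher and 4 lower of 26 (3 and 5 with that scaling). Paralogs of glycolysis enzymes had 3 of 6 higher (1 higher and 1 lower with that scaling), and pyruvate dehydrogenase and carrier genes 2 higher and 2 lower of 10.

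**Figure D4:**
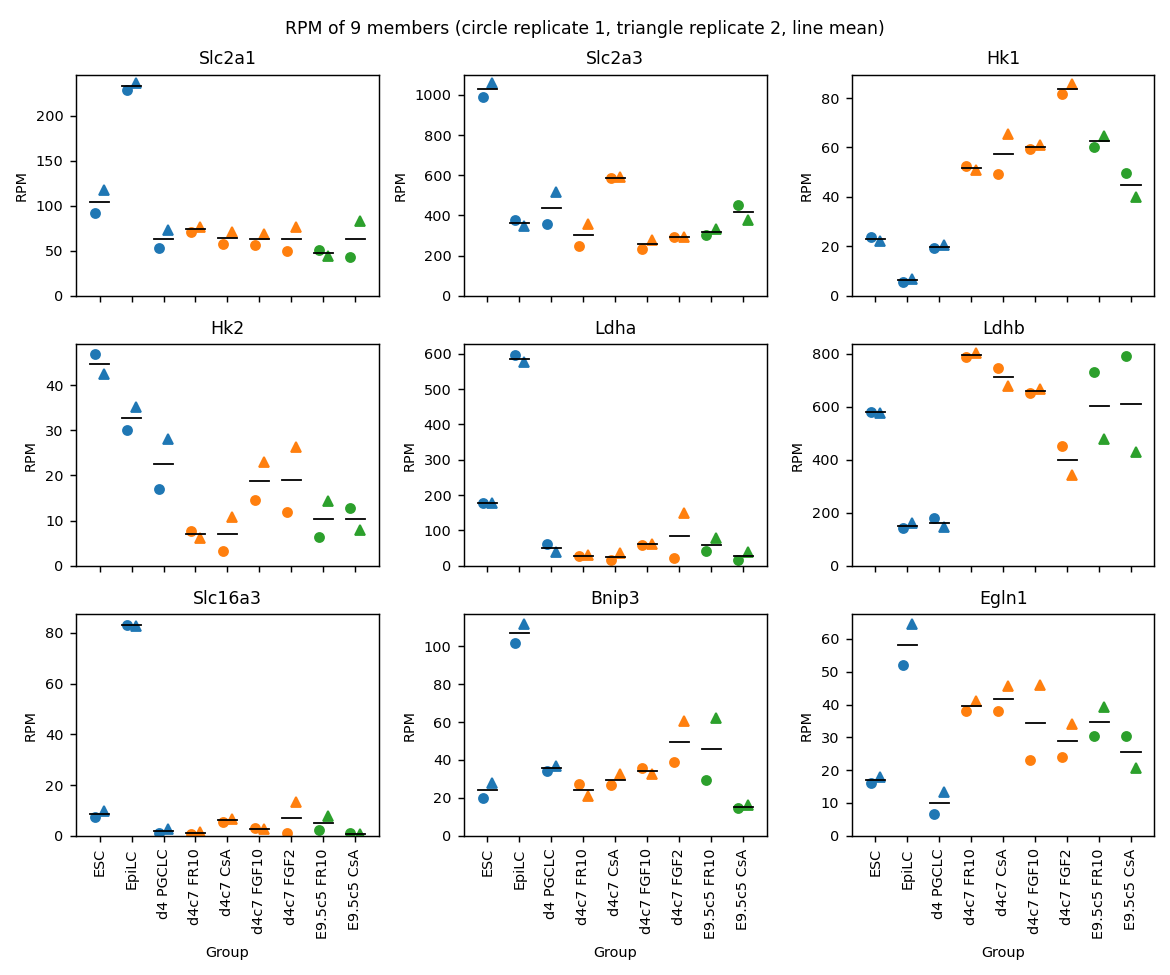
RPM of 9 members in each library by group (circle for replicate 1, triangle for replicate 2, line for the mean of the 2, separate vertical scales from 0). Ldha and Slc16a3 stand high in EpiLCs alone among the 9 groups, Hk1 lies higher in every cultured library than in the 6 uncultured ones, and the FGF2 replicates lie apart for Ldha and Slc16a3.

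Culture was examined by setting d4c7 FR10 cells against day-4 PGCLCs. Of 33 members 5 rose and 1 fell, where 7.01% of genes were higher and 8.22% lower (15.2% called), and the median member was at -0.17 against -0.07 over all genes. The members that rose were Ldhb, Hk1, Pdk1, Pfkfb3 and Egln1. Strain label, a second sort and culture on feeders all differ between these groups and cannot be told apart.

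Ldhb rose from 181 and 145 RPM to 788 and 803 RPM, a difference of 2.29 (SE 0.25, adjusted p = 1.56e-05). All 12 cultured libraries held 344 RPM of Ldhb or more. Ldha was at 62.0 and 40.0 RPM at day 4 and at 26.7 and 31.4 RPM after culture and did not pass, so that the ratio of Ldha to Ldhb RPM was 0.0339 and 0.0391 after culture. Hk1 rose from 19.3 and 20.5 RPM to 52.7 and 50.8 RPM (1.34, SE 0.25, adjusted p = 0.00146). Hk2 was at 16.9 and 28.0 RPM and then at 7.74 and 6.21 RPM and did not pass. Its groups did not overlap, which held for 26 of 33 members and 65.7% of all tested genes. The ratio of Hk2 to Hk1 RPM, 5.45 and 5.06 in EpiLCs, was 0.878 and 1.37 at day 4 and 0.147 and 0.122 in d4c7 FR10. Pdk1, a kinase of pyruvate dehydrogenase and HIF target gene (chromosome 2, 71873215 to 71903858), rose from 67.6 and 78.2 RPM to 204 and 178 RPM (1.38, SE 0.30). Pfkfb3 rose from 19.3 and 18.2 RPM to 89.5 and 81.5 RPM (2.13, SE 0.56), and Egln1 from 6.57 and 13.3 RPM to 37.9 and 41.1 RPM (1.96, SE 0.37). Tpi1 fell from 86.9 and 123 RPM to 45.3 and 57.0 RPM (-1.01, SE 0.32, adjusted p = 0.0402).

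The count of 6 was 3 without day-4 replicate 1, where 5.99% of genes were called, and 10 without E9.5c5 CsA replicate 1 or 2, where 20.3% and 20.2% were called. It was 10 in a fit of these 4 libraries alone (25.1% of genes), and 18, 10 higher and 8 lower, without the 3 libraries that stand apart (31% of genes). Ldhb, Hk1 and Egln1 kept their calls with any library left out. Pdk1 lost its call without day-4 replicate 1 (adjusted p = 0.0565), Pfkfb3 without any 1 of the 4 libraries (up to 0.096) or with no filter (0.0584), and Tpi1 without any of 10 libraries, these 4 among them (up to 0.28), with a pseudocount of 0.1 RPM (0.0513), with no filter (0.092) or with median-ratio scaling (-0.93, adjusted p = 0.0543). That scaling, under which 15% of genes were called, called Pfkp in its place (0.69, adjusted p = 0.0408).

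Feeder and fibroblast markers moved with this comparison. Of 10 listed markers 6 were above 0 at day 4 and 8 in d4c7 FR10, their summed level was 36.2 and 47.7 RPM and then 213 and 179 RPM, and 3 of 7 tested were called higher and 0 lower. Dcn, a proteoglycan of fibroblasts, was listed at 0 in both day-4 libraries and at 76.7 and 69.4 RPM in d4c7 FR10, and Lum was at 0 in all 18 libraries. The same markers summed to 50.1 to 59.0 RPM in 4 other cultured libraries, replicate 2 of d4c7 CsA, FGF10 and FGF2 and of E9.5c5 CsA. In that order these held 678, 669, 344 and 430 RPM of Ldhb, 65.6, 61.2, 85.5 and 40.0 RPM of Hk1, and 45.6, 45.9, 34.0 and 20.5 RPM of Egln1, all above both day-4 values. Pdk1, at 111, 284, 174 and 56.9 RPM, and Pfkfb3, at 66.2, 67.6, 24.5 and 19.2 RPM, were above both day-4 values in the first 3 of them and not in E9.5c5 CsA replicate 2. These libraries differ from d4c7 FR10 in treatment or source as well, and the part of feeder RNA in the result was not tested. Germ cell markers had 3 of 9 higher, Dppa3, Dazl and Ddx4, and 1 lower, Tfap2c. Embryonic haemoglobin transcripts, Hbb-y at 16.2 RPM, Hbb-bh1 at 10.4 RPM and Hba-x at 8.63 RPM, were above 0 in d4c7 FR10 replicate 2 alone, and their part in the result was not tested.

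Among the other pathway genes, Anxa2, an annexin, rose from 17.8 and 16.4 RPM to 112 and 127 RPM (2.73, SE 0.36), and Pgd from 41.3 and 44.0 RPM to 106 and 114 RPM (1.35, SE 0.20). Bhlhe40, a repressor induced by hypoxia, was at 18.8 and 14.3 RPM at day 4 and was listed at 0 in both d4c7 FR10 libraries. Angptl4, a lipase inhibitor, was listed at 0 and at 4.83 RPM at day 4 and at 23.2 and 23.1 RPM after culture, and its call (adjusted p = 0.00356) ended without day-4 replicate 1 (0.0847). Further hypoxia targets had 3 higher and 4 lower of 26, HIF pathway genes 2 of 12 higher, pentose phosphate genes 2 of 7 higher, pyruvate dehydrogenase and carrier genes 2 of 10 higher, and paralogs of glycolysis enzymes 1 of 6 lower. Eno1b, a listed near-identical copy of Eno1, was at 0 to 1.14 RPM in the 6 libraries of ESCs, EpiLCs and day-4 PGCLCs and at 12.0 and 14.2 RPM in d4c7 FR10 (3.53, SE 0.46, adjusted p = 7.63e-05). Reads of Eno1 and Eno1b may be split by the counting, so Eno1 is uncertain in cultured cells.

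**Figure D5:**
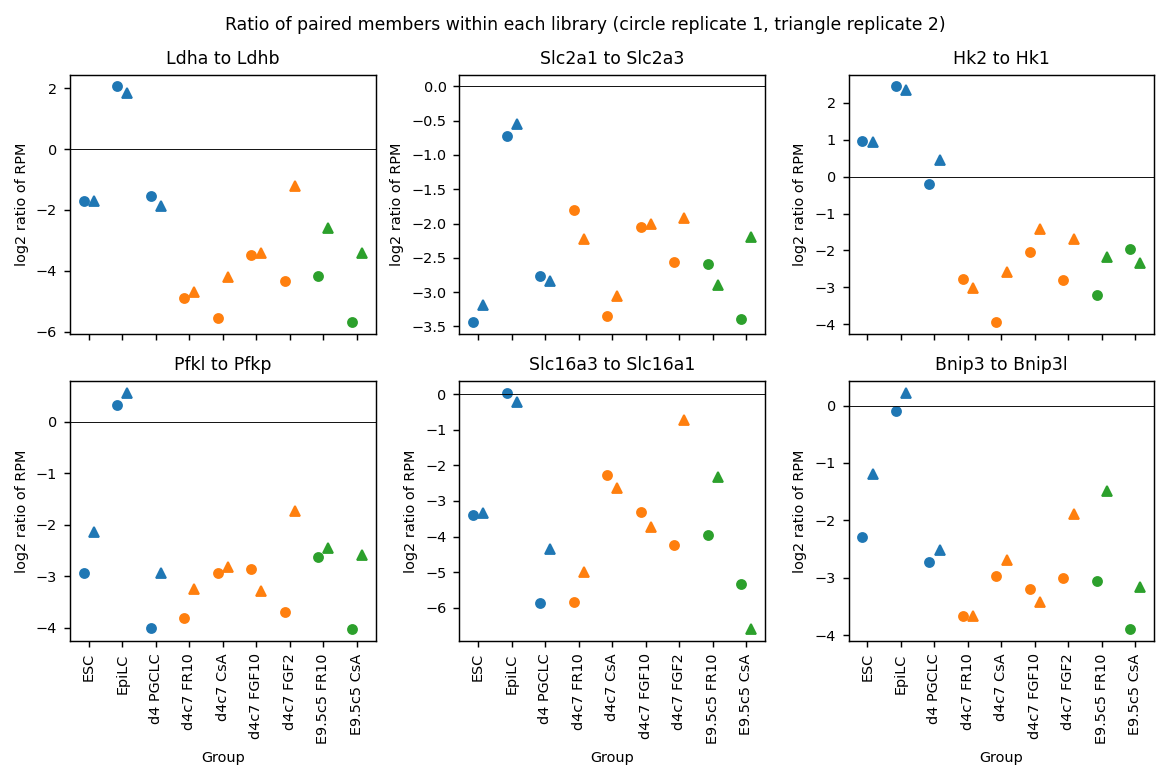
Ratio of the RPM of 6 pairs of members within each library, on a log2 axis (circle for replicate 1, triangle for replicate 2), as a description with no test and no correction for differences between the genes in how reads are captured. EpiLCs have the highest ratio in all 6 pairs, and in cultured libraries the ratios of Ldha to Ldhb and of Hk2 to Hk1 lie below those of ESCs except for Ldha to Ldhb in FGF2 replicate 2, at 0.431.

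For CsA in culture, d4c7 CsA was compared with d4c7 FR10. Whether the CsA cultures also received forskolin and rolipram is not given, so the contrast may hold a difference in those compounds too. The same limit holds for the FGF10, FGF2 and E9.5c5 CsA comparisons below. Limma called 0 of 33 members, where 0.0314% of genes were called. Of the members, 6 had an unadjusted p under 0.05, beside 1317 of all 9561 genes, and voom on inferred reads called 0 members. The median member was at -0.15 and the median gene at -0.24, which median-ratio scaling moved to 0.07 and -0.02. The smallest p belonged to Slc2a3, which was at 250 and 359 RPM in FR10 and at 585 and 593 RPM in CsA, without overlap (0.97, SE 0.20, adjusted p = 0.0862). It passed with median-ratio scaling (1.20, adjusted p = 0.0229), with a filter at 50 RPM (0.97, adjusted p = 0.0463), and without E9.5c5 CsA replicate 1 or 2 (0.97, adjusted p = 0.025). Slc16a3 was at 0.774 and 1.38 RPM in FR10, near the value of 3 reads, and at 5.50 and 6.65 RPM in CsA (1.78, SE 0.68, adjusted p = 0.263). Pgam1, phosphoglycerate mutase, was at 396 and 367 RPM and at 228 and 263 RPM (-0.64, SE 0.24, adjusted p = 0.257). Pdk1 was at 204 and 178 RPM and at 117 and 111 RPM (-0.74, SE 0.30, adjusted p = 0.283). The groups did not overlap in these 4 members, which held for 18 of 33 members and 53% of all tested genes. Without the 3 libraries that stand apart 5 members were called, Slc2a3 and Slc16a3 higher and Pgam1, Pdk1 and Pfkp lower, where 10.1% of genes were called. Ldhb (788 and 803 against 746 and 678 RPM) and Hk1 (52.7 and 50.8 against 49.2 and 65.6 RPM) differed by less than these. The feeder markers summed to 213 and 179 RPM in FR10 and to 169 and 50.8 RPM in CsA, with 0 of 7 called, and their part in these values was not tested. In the other pathway lists limma called 0 genes. At an unadjusted p under 0.05 were 4 of 12 HIF pathway genes, 1 of 26 hypoxia targets and 3 of 10 pyruvate dehydrogenase and carrier genes. The same held for 1317 of all 9561 genes, so these small lists are not set apart here.

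The group labelled FGF10 was set against the same d4c7 FR10 libraries. Limma called 0 of 33 members and 0% of all genes, with 5 members and 477 genes at an unadjusted p under 0.05, and voom called 0 of both. Median differences were 0.17 over members and -0.08 over all genes. Eno1, the enolase of most tissues, was at 91.0 and 99.4 RPM in FR10 and at 190 and 168 RPM in FGF10 (0.90, SE 0.30, adjusted p = 0.878). Eno1b, its copy, was at 12.0 and 14.2 RPM and at 21.9 and 20.2 RPM. Pkm, pyruvate kinase, was at 477 and 566 RPM and at 868 and 756 RPM (0.64, SE 0.23, adjusted p = 0.91). Pfkp was at 174 and 138 RPM and at 223 and 264 RPM (0.64, SE 0.25, adjusted p = 0.947), and Hk2 at 7.74 and 6.21 RPM and at 14.5 and 22.9 RPM (1.28, SE 0.52, adjusted p = 0.979). In these 4 members both FGF10 libraries lay above both FR10 libraries. The groups did not overlap in 21 of 33 members, 15 higher and 6 lower, and in 40.1% of all tested genes, 15.1% higher and 25% lower. Eno1 and Pkm passed without the 3 libraries that stand apart, both with an adjusted p of 0.0315, where 0.377% of genes were called.

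FGF2 was compared with d4c7 FR10 as well. Of 33 members 1 rose and 3 fell, where 1.37% of genes were higher and 7.47% lower (8.84% called). Median differences were -0.04 over members and -0.33 over all genes. With median-ratio scaling, which moved the median gene to -0.03, 4 members were higher and 0 lower, where 2.98% of genes were higher and 2.71% lower. So the direction of the calls depended on the scaling. As deposited, Eno1 rose from 91.0 and 99.4 RPM to 151 and 258 RPM (1.05, SE 0.30, adjusted p = 0.0415), with Eno1b at 12.2 and 32.3 RPM in FGF2. The 3 that fell belong to pyruvate and lactate handling. Ldhb fell from 788 and 803 RPM to 453 and 344 RPM (-1.01, SE 0.25, adjusted p = 0.0262). Pdk3 fell from 101 and 81.1 RPM to 46.4 and 49.6 RPM (-0.91, SE 0.23), and Slc16a1 from 44.5 and 44.2 RPM to 21.7 and 21.6 RPM (-1.0, SE 0.27). The groups did not overlap in these 4 members, which held for 21 of 33 members and 58.5% of all tested genes.

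With median-ratio scaling Eno1 (1.35, adjusted p = 0.0325), Hk1 (0.99, adjusted p = 0.0296), Gapdh (0.81, adjusted p = 0.0296) and Bnip3 (1.29, adjusted p = 0.043) were higher. Ldhb (-0.70, adjusted p = 0.0565), Pdk3 (-0.60, adjusted p = 0.0909) and Slc16a1 (-0.70, adjusted p = 0.139) kept their sign there and did not pass. Hk1 was at 81.8 and 85.5 RPM in FGF2, its highest level in any group, against 52.7 and 50.8 RPM in FR10. All 4 calls ended without FR10 replicate 1, FR10 replicate 2 or FGF2 replicate 2, at an adjusted p of up to 0.201 for Ldhb, 0.249 for Pdk3, 0.21 for Slc16a1 and 0.355 for Eno1, and 0 members and 0% of genes were called in a fit of these 4 libraries alone. Eno1 also lost its call without 8 other single libraries. Without the 3 libraries that stand apart 5 members fell and 0 rose, Ldhb, Pdk3, Slc16a1, Pgam1 and Pdha1, where 11.4% of genes were called, and Eno1 was at 0.66 (adjusted p = 0.0602). Without FGF2 replicate 1 the count was 14, 10 higher and 4 lower, where 18% of genes were called, and without E9.5c5 CsA replicate 1 or 2 it was 11, where 19.4% and 19.3% were called. With no filter 1 member, Pdk3, was called beside 1.97% of genes, and Ldhb (adjusted p = 0.0722), Slc16a1 (0.0524) and Eno1 (0.109) were not. With voom Slc16a1 did not pass (0.0573). In the other lists Tkt rose (0.91, SE 0.27) and Car12, a carbonic anhydrase, and Wsb1, a substrate adaptor of a ubiquitin ligase, fell (-2.85, SE 0.63, and -1.09, SE 0.28). Their calls ended without single FR10 or FGF2 libraries (adjusted p up to 0.316, 0.172 and 0.236), that of Tkt without any of 14 libraries, and Wsb1 did not pass with median-ratio scaling (adjusted p = 0.101). Feeder markers summed to 98.6 and 50.1 RPM in FGF2, with 2 of 7 called lower, and germ cell markers had 3 of 9 lower, Kit, Dppa3 and Prdm1 (2 with median-ratio scaling). The part of either list in these differences was not tested.

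The FGF2 libraries differed from each other in many members. Replicate 2 held 148 RPM of Ldha against 22.5 RPM in replicate 1, 595 against 237 RPM of Pgk1, 536 against 253 RPM of Aldoa, 59.1 against 16.7 RPM of Pfkl and 13.1 against 1.14 RPM of Slc16a3. In all 8 of 33 members were at least 2-fold higher in replicate 2 and 0 lower, while over all genes 5.47% were higher and 14.1% lower by that measure. Group means of these genes in FGF2 therefore rest on libraries that lay far apart.

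CsA was also given to germ cells of embryos, where E9.5c5 CsA was compared with E9.5c5 FR10. Limma called 0 of 33 members and 0% of all genes, with 11 members and 703 genes at an unadjusted p under 0.05, and voom called 0 members. The median member was at -0.45 and the median gene at -0.11, and with median-ratio scaling they were at -0.34 and 0. Bnip3 was at 29.3 and 62.0 RPM in FR10 and at 14.5 and 16.2 RPM in CsA (-1.42, SE 0.34, adjusted p = 0.444). Pkm was at 682 and 1060 RPM and at 404 and 533 RPM (-0.87, SE 0.23, adjusted p = 0.459), Tpi1 at 44.2 and 52.7 RPM and at 26.8 and 17.3 RPM (-1.13, SE 0.32, adjusted p = 0.518), and Pdk3 at 113 and 105 RPM and at 74.1 and 51.7 RPM (-0.81, SE 0.23, adjusted p = 0.518). In all 4 the CsA libraries lay below the FR10 libraries. The groups did not overlap in 14 of 33 members, 1 higher and 13 lower, and in 25.4% of all tested genes, 8.61% higher and 16.8% lower. In both groups replicate 2 stands apart, and without CsA replicate 1 limma called 6 members, all lower, Pdk1, Pfkp, Pgam1, Pdk3, Tpi1 and Bnip3, with the remaining CsA library assumed to vary like the other groups and 6.84% of genes called. Without the 3 libraries that stand apart, which leaves 1 library in each of these groups, 0 members and 0.0941% of genes were called. Ldhb was at 732 and 477 RPM in FR10 and at 794 and 430 RPM in CsA, and so differed more between replicates than between treatments. Slc16a3 was at 2.38 and 7.79 RPM and at 0.904 and 0.566 RPM, the latter at the value of 3 reads.

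The difference between CsA and FR10 cultures was compared between the cell sources by the difference of the 2 contrasts. Limma called 0 members and 0% of genes, with 5 members and 616 genes at an unadjusted p under 0.05, and voom called 0 members. The values with the smallest p were those of Slc16a3 (-3.44, SE 0.96, adjusted p = 0.677), Bnip3 (-1.71, SE 0.48, adjusted p = 0.677), Pkm (-0.84, SE 0.32, adjusted p = 0.728) and Pfkl (-1.59, SE 0.64, adjusted p = 0.728). In d4c7 cells Slc16a3 was higher in both CsA libraries than in FR10, and in E9.5c5 cells lower in both, but this difference did not pass. Slc2a3 was at 302 and 332 RPM in E9.5c5 FR10 and at 453 and 380 RPM in E9.5c5 CsA, so that its CsA libraries lay above FR10 in both cell sources.

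In the same medium, E9.5c5 FR10 cells were set against d4c7 FR10 cells, a contrast in which source, strain label, reporter, sort and days of culture cannot be told apart. Limma called 0 of 33 members, where 0.0418% of genes were called. At an unadjusted p under 0.05 there were 7 members and 1421 of all 9561 genes, and voom called 0 members. The median member was at 0.08 and the median gene at -0.20, and median-ratio scaling moved them to 0.26 and -0.03. Hif1a was at 137 and 127 RPM in d4c7 and at 87.1 and 66.8 RPM in E9.5c5 (-0.78, SE 0.23, adjusted p = 0.2). Pkm was at 477 and 566 RPM and at 682 and 1060 RPM (0.71, SE 0.23, adjusted p = 0.202), and passed without E9.5c5 FR10 replicate 1 (1.03, adjusted p = 0.0375). Pfkl (1.19, SE 0.45, adjusted p = 0.266) and Eno1 (0.75, SE 0.30, adjusted p = 0.282) were also without overlap between groups, as were 22 of 33 members and 49% of all tested genes. Ldhb at 732 and 477 RPM and Hk1 at 60.2 and 64.8 RPM in E9.5c5 FR10 lay in the range of the other cultured groups, above day-4 PGCLCs.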

How the data were processed

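The authors deposited RPM per gene for each of 18 mouse SC3-seq libraries, in which only transcript 3' ends are read. The deposited RPM sum to 999098 to 999617 per library. Cufflinks 2.2.0, TopHat 1.4.1, cutadapt 1.3 and the build mm10 are listed, without their roles, per the submitters' processing notes. How reads shared by near-identical copies were counted is not given in the sources used here.

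From these values log2(RPM + 1) was computed, genes with at least 10 RPM in at least 2 libraries were kept, and a mean per group was fitted over all 18 libraries with limma 3.58.1 (trend on expression) in R 4.3.3. This gave 9 residual degrees of freedom. Of the 34896 genes listed, 46 had no value. Members were matched by symbol. RefSeq coordinates and promoters are of GRCm38.p6. For low genes, 98.8% to 99.1% of values were whole multiples of the value of 1 read within 0.02 reads, and that value gave the inferred reads. Intervals from reads would cover counting error only and are not given.

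The members, the other gene lists and the tests were chosen with earlier results of these data known. Differences with SE are given for called members and, where fewer than 4 were called, for the 4 with the smallest p. Of the other lists, up to 4 called genes with the smallest p are named per comparison. In these lists 134 of 139 genes were matched. The results were recomputed with pseudocounts of 0.1 and 10 RPM, a filter at 50 RPM, no filter, median-ratio scaling, a replicate block, the compared groups alone, each library left out, the 3 libraries that stand apart left out, and voom on inferred reads. The last was chosen after seeing the data. The fit was also run on simulated data with normal residuals and the same spread of a gene in all groups. Those data leave out the unequal spread of replicates seen here, and their outcome is not given.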

Additional observations from a re-analysis of the deposited data

How the results depend on the processing

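Of 54 called member differences, 26 were called in the same direction under all 27 alternatives. Aldoc and Egln3 in day-4 PGCLCs against ESCs were called in every alternative that tested them, but were too low for the filter at 50 RPM, as were 8 of the 54 in all. Among the alternatives that tested them, 0 of the 54 and 0 of 20 uncalled differences changed sign. Leaving out a library of another group, or changing the filter, does not move a difference. Many of the alternatives therefore could not have changed a sign. Without the 3 libraries that stand apart 19 members were lower and 5 higher for day-4 PGCLCs against EpiLCs, and 15 and 5 against ESCs. The count of members called without them was 17 for EpiLCs against ESCs, 18 for d4c7 FR10 against day-4 PGCLCs, 5 for CsA and 2 for FGF10 in d4c7. In a fit of the compared groups alone it was 10 for d4c7 FR10 against day-4 PGCLCs and 0 for FGF2. With no filter it was 1 for FGF2, and a filter at 50 RPM or median-ratio scaling gave 1 for CsA in d4c7. With 1 library left out at a time the count ran from 8 to 14 for EpiLCs against ESCs, from 13 to 23 for day-4 PGCLCs against EpiLCs, from 8 to 18 against ESCs, and from 3 to 10 for d4c7 FR10 against day-4 PGCLCs. It ran from 0 to 1 for CsA, 0 to 0 for FGF10 and 0 to 14 for FGF2 in d4c7, from 0 to 6 for CsA in E9.5c5, from 0 to 1 for E9.5c5 FR10 against d4c7 FR10, and from 0 to 0 for the difference between the CsA contrasts. The cause of these changes was not tested. Where no share of all genes stands beside a count, it does not show whether members changed more than other genes.

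Nothing in the labels says that replicate numbers pair the samples. Deviations of same-numbered libraries correlated over genes at 0.34 between E9.5c5 CsA and E9.5c5 FR10, at 0.13 between E9.5c5 FR10 and d4c7 FR10, and at -0.03 to 0.10 in the other comparisons. A replicate block gave 13 members called for EpiLCs against ESCs, 20 and 15 for day-4 PGCLCs against EpiLCs and ESCs, 7 for d4c7 FR10 against day-4 PGCLCs, 7 for FGF2, and 0 in the other comparisons. The share of all genes called with that block is not given here, so these counts do not set members apart from other genes.

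There were 2 libraries per group, and 3 reads were worth up to 1.41 RPM. Changes of Slc16a3, Aldoc, P4ha2 and Pfkfb4 in cells where they are low were at or near the limit of detection. Vegfa, at 5 to 40 inferred reads across the libraries, was not tested.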

Other observations

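In the 3 groups whose replicates lay far apart, members did not follow all genes in the same way. In d4c7 FGF2 the median member was 0.31 higher in replicate 2 on the log2 scale and the median gene -0.14. In E9.5c5 FR10 these medians were 0.26 and -0.07, with 4 members at least 2-fold higher in replicate 2 and 1 at least 2-fold lower, against 4.85% and 10.4% of all genes. In E9.5c5 CsA they were -0.31 and -0.32, with 3 members higher and 5 lower by that measure, against 5.20% and 22.6% of all genes. Aldoa was higher in replicate 2 of all 3 groups, at 253 and 536 RPM, 259 and 435 RPM, and 126 and 354 RPM. Ldha was as well, at 22.5 and 148 RPM, 40.5 and 79.9 RPM, and 15.4 and 40.0 RPM, and Pgk1 at 237 and 595 RPM, 298 and 450 RPM, and 226 and 318 RPM. Pgam1 was lower in replicate 2 of all 3, at 261 and 230 RPM, 343 and 275 RPM, and 296 and 151 RPM. Ldhb was lower as well, at 453 and 344 RPM, 732 and 477 RPM, and 794 and 430 RPM. Further members also moved the same way in all 3 groups, some higher and some lower. The genes named here were chosen after their values were seen.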
